A study of Rattus norvegicus with 20 samples.

Results

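Doublecortin (Dcx), the doublecortin-like kinase Dclk1 and the 5 collapsin response mediator protein (CRMP) genes Crmp1, Dpysl2, Dpysl3, Dpysl4 and Dpysl5 were followed in rat globular bushy cells from postnatal day 3 (P3) to P21. They were taken as all probe sets whose platform annotation names exactly 1 gene with one of these 7 symbols. This gave 12 probe sets, with at least 1 for each of the 7 genes, of 20826 probe sets annotated to 1 gene. Globular bushy cells of the ventral cochlear nucleus each send a thick axon across the midline to the medial nucleus of the trapezoid body and end there in a giant terminal, the calyx of Held. Cells were marked by fluorescent cholera toxin B injected at that target in Sprague Dawley rats with no genetic change named, and 24 hours later 200 marked cells of each animal were collected by laser microdissection. The groups were 6 animals at P3, when the calyx has just formed, 9 at P8, when it is juvenile, and 5 at P21, when it is mature, with 1 array per animal. Every animal had been injected.

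Doublecortin is a microtubule-binding protein of migrating and newly differentiating neurons, and it stabilises and bundles microtubules in growing neurites. Dclk1 carries the same kind of doublecortin domains joined to a protein kinase domain, and some of its transcripts encode only one of these parts. CRMPs are cytosolic proteins that bind tubulin and act downstream of semaphorin 3A in the growth cone, where phosphorylation by Cdk5 and GSK3 weakens their binding to tubulin. In rodents most of the family is expressed most strongly while axons grow, and Dpysl2 (CRMP2) is the member known to stay expressed in adult neurons. Dpysl2 and Dpysl5 have also been described in oligodendrocytes.

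The sequences at the gene starts are shown for Dcx, Crmp1 and Dpysl5, whose falls by P21 had the smallest p-values among the 7 genes. The start of Dcx is poorer in G and C than those of Crmp1 and Dpysl5, which are both rich in them. The windows are from RefSeq (build GRCr8), run 5′ to 3′ on the gene's strand from 250 bases before to 50 bases after the annotated start, and exist for 6 of the 7 members, 7 windows in all. Capitals mark the letters GGGCGG (a GC box), CCAAT and TATAAA on either strand, with neighbouring GC boxes run together.
Dcx, chrX:112304112-112304411, minus strand: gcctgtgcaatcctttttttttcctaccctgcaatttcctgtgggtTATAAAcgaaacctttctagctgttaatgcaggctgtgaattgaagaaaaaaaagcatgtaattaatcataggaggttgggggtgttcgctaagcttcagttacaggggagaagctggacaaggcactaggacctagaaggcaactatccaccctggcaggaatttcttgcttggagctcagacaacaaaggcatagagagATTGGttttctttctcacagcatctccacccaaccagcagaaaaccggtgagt
Crmp1, chr14:77780867-77781166, minus strand: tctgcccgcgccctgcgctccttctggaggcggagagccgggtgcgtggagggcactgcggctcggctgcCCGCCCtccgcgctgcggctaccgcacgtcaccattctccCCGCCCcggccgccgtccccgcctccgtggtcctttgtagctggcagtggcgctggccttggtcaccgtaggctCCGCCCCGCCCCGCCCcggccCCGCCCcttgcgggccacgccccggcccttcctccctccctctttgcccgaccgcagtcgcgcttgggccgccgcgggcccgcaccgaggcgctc
Dpysl5, chr6:31379299-31379598, minus strand: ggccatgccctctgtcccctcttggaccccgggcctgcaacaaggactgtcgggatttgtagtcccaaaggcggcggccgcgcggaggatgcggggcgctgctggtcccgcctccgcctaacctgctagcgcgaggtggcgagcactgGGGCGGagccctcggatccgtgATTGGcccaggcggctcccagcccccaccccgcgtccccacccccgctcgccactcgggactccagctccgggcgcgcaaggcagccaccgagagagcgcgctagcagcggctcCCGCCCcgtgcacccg
The Dcx window was 45.0% G or C and held 0 GC boxes, 1 CCAAT and 1 TATAAA. The Crmp1 window was 77.7% G or C with 6 GC boxes, and the Dpysl5 window 73.7% with 2 GC boxes and 1 CCAAT. The windows of Dclk1 and Dpysl4 and both windows of Dpysl3 held 1, 1, 3 and 1 GC boxes. Among 21842 windows of the same length at protein-coding genes, the median was 55.0% G or C, and 41.8% held a GC box, 38.0% a CCAAT and 13% a TATAAA. These letters describe the windows and are not evidence that a factor binds there.

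Levels are log2(intensity + 1) of each probe set, and a difference between ages is the later mean minus the earlier mean on that scale. The pseudocount of 1 understates changes of dim probe sets. The arrays of P8 replicates 5 to 9 differed from the other 15. The mean of the bacterial spike-in control probe sets on them lay between 6.80 and 7.52, against 4.07 to 4.48 on the others, and their median intensities were 58.9 to 67.5 against 23.8 to 32.5. They are therefore given separately, and "P8" alone means replicates 1 to 4. Of 12 neuronal and bushy cell genes, 9 were higher at P21 than at P3 and 0 were lower. The mean over this list was 9.58 ± 0.08 at P21 (SD, n = 5) against 7.10 ± 0.18 at P3 (SD, n = 6). None of the 12 was at 0 on any array, but this held for every list of cell type markers below and does not set neurons apart. Markers of other cells also moved. The summed intensity of 9 oligodendrocyte genes ran from 7165 to 10691 at P21 and from 791 to 2143 at P3, with 9 of 9 called higher and none at 0 on any array. At P8 their sum was 5680 to 8791, and 9 of 9 were higher than at P3. Of 4 tested genes of oligodendrocyte precursors 3 were lower and 1 higher at P21, and of 2 tested genes of inhibitory neurons 2 were lower. Of 7 astrocyte genes 2 were lower and 2 higher, with a summed intensity of 5093 to 6453 at P21 and 4502 to 9401 at P3. Of 6 microglial genes 0 were called, of 5 granule cell genes 1 was lower and 1 higher, and of 2 Schwann cell genes 1 was lower. For GAPDH, the control probe set at the 3' end exceeded that at the 5' end by 3.30 to 4.71 at P21 and by 2.52 to 3.20 at P3, a gap that widens with shorter RNA. For beta-actin the same gap was 3.84 to 5.51 at P21 and 4.30 to 5.03 at P3, with means of 4.32 and 4.70, so the 2 controls did not move alike. The part of these shifts in the results below was not tested. In samples of 200 cells, fewer cells of a type and less RNA per cell cannot be told apart.

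Of the 12 probe sets, 10 passed the filter of log2 4 on at least 5 of the 15 arrays, and 9 of these 10 lay above log2 4 on every one of the 15. The 10 represent all 7 genes. Between P3 and P21, 8 of the 10 fell, 0 rose and 2 did not pass (limma, Benjamini-Hochberg adjusted p under 0.05 over all 15647 probe sets tested), while 39.1% of all probe sets tested were called, 19.0% lower and 20.1% higher. The median difference of the 10 was -2.33, against 0.02 over all probe sets tested. In 8 of the 10 every P21 array lay below every P3 array, which held for 13.6% of all probe sets tested (15.1% in the other direction). By gene, Dcx, Dclk1, Crmp1, Dpysl3, Dpysl4 and Dpysl5 fell and Dpysl2 did not pass.

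**Figure D1:**
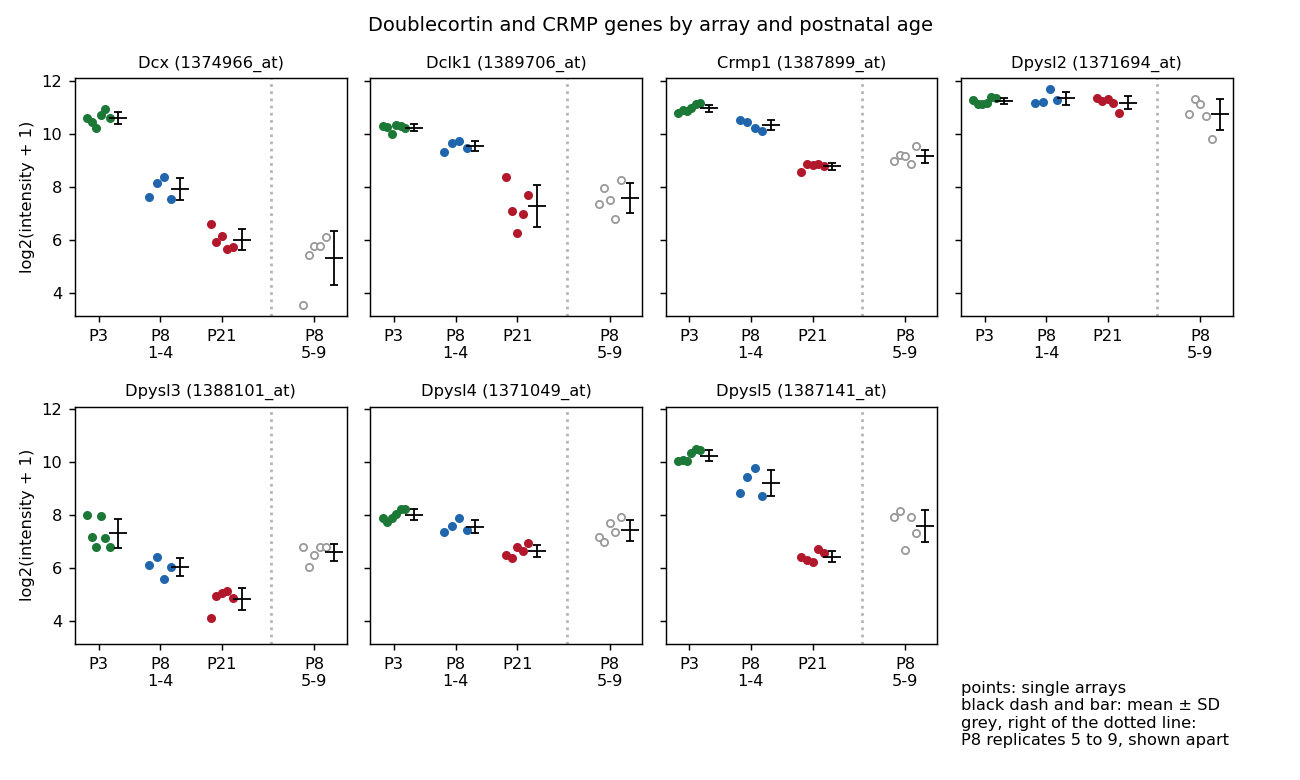
Level of each gene's brightest probe set on each array, as log2(intensity + 1), at P3 (6 arrays), P8 replicates 1 to 4, P21 (5 arrays) and, right of the dotted line, P8 replicates 5 to 9; points are arrays and the black dash and bar are the mean ± SD. Dcx averages 10.59, 7.93 and 6.02 at the 3 ages, while Dpysl2 stays between 10.78 and 11.68 on the 15 arrays.

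Dcx had the largest change of the 7 genes. On its bright probe set (1374966_at) the P3 arrays ran from 10.24 to 10.92 with a median of 10.60, the P8 arrays read 7.62, 8.17, 8.36 and 7.55, and the P21 arrays read 6.62, 5.93, 6.17, 5.65 and 5.74. The 3 ages did not overlap. The difference was -4.57 ± 0.21 (SE) for P21 against P3, or 23.7-fold lower, with adjusted p = 3.02e-09 by limma, the rank 2 of 15647 by p. The other Dcx probe set (1387601_at) was dim and untested, at 1.20 to 2.10 on P3 arrays, 0.93 to 3.04 on P8 arrays and 1.00 to 3.73 on P21 arrays. It lay above log2 4 on 0 of the 15 arrays.

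Dclk1 had 4 probe sets, of which 3 were bright and fell. On the brightest (1389706_at) the P3 arrays ran from 10.01 to 10.35 with a median of 10.28, the P8 arrays read 9.32, 9.65, 9.74 and 9.48, and the P21 arrays read 8.39, 7.10, 6.26, 6.98 and 7.72. The P21 arrays were the most spread, over more than 2 log2 units, yet all lay below every P8 array. The difference was -2.95 ± 0.28 for P21 against P3 (adjusted p = 1.26e-06 by limma). The probe set 1387276_at fell by 3.22 ± 0.25 and 1369686_at by 1.51 ± 0.14 (adjusted p = 2.57e-07 and 1.51e-06 by limma). The probe sets of Dclk1 thus gave falls of unlike size, 9.30-fold and 2.85-fold for these 2, and the annotation used here does not say which transcripts each one reads. The 1380429_at probe set was dim and untested, at 2.14 to 3.63 on P21 arrays and 1.81 to 3.19 on P3 arrays.

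Crmp1, whose product is a CRMP of growing axons and dendrites, showed little spread within an age. Its P3 arrays ran from 10.78 to 11.15 with a median of 10.93, the P8 arrays read 10.54, 10.46, 10.22 and 10.13, and the P21 arrays read 8.56, 8.88, 8.84, 8.86 and 8.78. The ages did not overlap. Crmp1 fell by 2.18 ± 0.13 between P3 and P21, or 4.53-fold (adjusted p = 1.99e-08 by limma).

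Dpysl5 (CRMP5), a CRMP that restrains neurite outgrowth in cultured neurons, fell most among the CRMPs. Its P3 arrays ran from 10.03 to 10.48 with a median of 10.21, the P8 arrays read 8.84, 9.44, 9.78 and 8.74, and the P21 arrays read 6.41, 6.30, 6.22, 6.72 and 6.56. Again the ages did not overlap. The difference for P21 against P3 was -3.79 ± 0.19, or 13.9-fold lower (adjusted p = 4.02e-09 by limma, rank 10 of 15647).

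Dpysl3 (CRMP4), which also binds actin filaments, had 2 probe sets that did not give the same result. On 1388101_at the P3 arrays ran from 6.79 to 8.00 with a median of 7.15, the P8 arrays read 6.11, 6.41, 5.58 and 6.03, and the P21 arrays read 4.12, 4.94, 5.08, 5.15 and 4.86. This probe set fell by 2.48 ± 0.27 between P3 and P21 (adjusted p = 4.32e-06 by limma). On 1391010_at all 15 arrays lay between 3.02 and 5.30, the ages overlapped, and the difference was 0.24 ± 0.35 (adjusted p = 0.627 by limma). The fall of Dpysl3 therefore rests on 1 of its 2 probe sets, the other being near the filter.

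Dpysl4 (CRMP3) had the smallest fall among the genes that passed. Its P3 arrays ran from 7.75 to 8.25 with a median of 7.97, the P8 arrays read 7.38, 7.58, 7.89 and 7.42, and the P21 arrays read 6.51, 6.40, 6.78, 6.65 and 6.97. The P21 arrays lay below all others, while P8 and P3 overlapped. The difference for P21 against P3 was -1.35 ± 0.15, or 2.55-fold lower (adjusted p = 6.99e-06 by limma).

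Dpysl2 (CRMP2), which carries tubulin dimers to the growing axon end, showed no difference between ages that passed the test. The P3 arrays ran from 11.11 to 11.38 with a median of 11.22, the P8 arrays read 11.18, 11.22, 11.68 and 11.26, and the P21 arrays read 11.35, 11.26, 11.33, 11.17 and 10.78. All 3 ages overlapped. The difference for P21 against P3 was -0.06, with a 95% interval from -0.36 to 0.25 (adjusted p = 0.781 by limma). For P8 against P3 it was 0.10 and for P21 against P8 -0.16 (adjusted p = 0.686 and 0.536 by limma). The intensities lay at or above the 99.6th percentile of all probe sets on each of the 15 arrays. Whether this place near the top of the scale limits the change that can be seen was not tested.

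**Figure D2:**
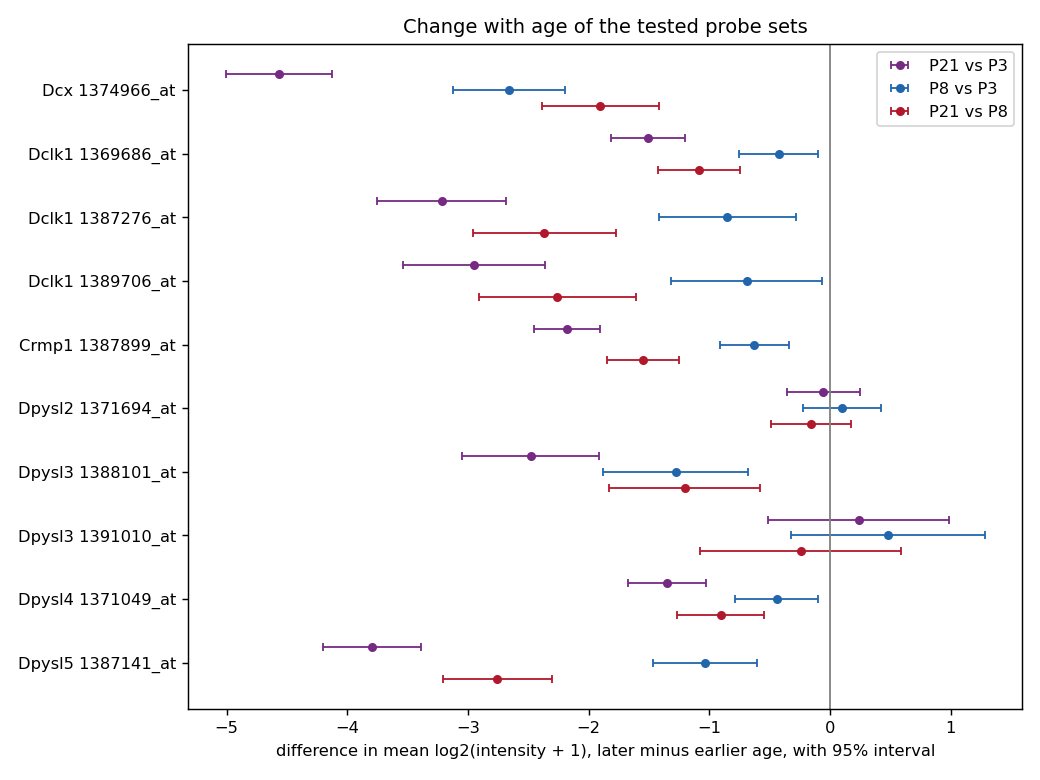
Difference between ages for the 10 tested probe sets, in log2(intensity + 1), later minus earlier age, with 95% intervals from limma. The intervals of Dpysl2 and of the dim Dpysl3 probe set include 0 in all 3 comparisons, and Dcx lies farthest from 0 for P21 vs P3 at -4.57.

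The difference between members was tested directly, with Dpysl2 as the comparator. The per-array difference of each of the other 6 genes from Dpysl2 was compared between ages by exact two-sided permutation tests over arrays, 18 tests in all. Relative to Dpysl2, Dcx was lower at P21 than at P3 by -4.51, Dpysl5 by -3.74, Dclk1 by -2.89, Dpysl3 by -2.42, Crmp1 by -2.12 and Dpysl4 by -1.29 on the log2 scale. In each of the 6 tests exact permutation p = 0.0043, the smallest that 462 regroupings allow, and 0.0130 after adjustment over the 18 tests. For P8 against P3 the 6 differences from Dpysl2 ran from -2.76 for Dcx to -0.54 for Dpysl4 (exact permutation p = 0.0095 for each, 0.0143 after adjustment). For P21 against P8 they ran from -2.60 for Dpysl5 to -0.75 for Dpysl4 (exact permutation p = 0.0159 to 0.0476, highest adjusted value 0.0476, for Dpysl3). The Dpysl3 and Dpysl4 calls of P21 against P8 ended in 8 and 7 of the 15 repeats that left out 1 array (highest adjusted exact permutation p = 0.1071 and 0.0756). With P8 replicates 5 to 9 in place of 1 to 4, Dcx minus Dpysl2 turned to 0.26 for P21 against P8 (adjusted exact permutation p = 0.6975). In this setting the Dclk1 call of P21 against P8 ended (-0.72, adjusted exact permutation p = 0.3143). So did the P8 against P3 calls of Dpysl3 and Dpysl4, at -0.22 and -0.09 (adjusted exact permutation p = 0.6721 and 0.7576). Over all 20 arrays the same P8 against P3 calls ended (adjusted exact permutation p = 0.1155 and 0.3744). The Dcx call of P21 against P8 ended there as well (-0.63, adjusted exact permutation p = 0.3744). With the mean of the other members as comparator in place of Dpysl2, 8 of the 18 tests passed, and not all of them downwards. Dcx was lower for P21 and for P8 against P3, and Dpysl5 for P21 against P3 and against P8. The rest passed in the other direction. Dpysl4 stood at 1.32 for P21 against P3, 0.59 for P8 against P3 and 0.73 for P21 against P8, and Dclk1 at 0.30 for P8 against P3.

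From P3 to P8, 5 of the 10 tested probe sets fell and 0 rose, where 15.6% of all probe sets tested were called, 7.75% lower and 7.81% higher. Dcx fell by 2.66 ± 0.22 (adjusted p = 1.25e-05 by limma, rank 4 of 15647). Dpysl3 (1388101_at), Dpysl5 and Crmp1 fell by 1.28 ± 0.28, 1.04 ± 0.20 and 0.63 ± 0.14 (adjusted p = 0.0081, 0.0041 and 0.0068 by limma). Of the bright Dclk1 probe sets only 1387276_at passed, with -0.85 ± 0.27 (adjusted p = 0.0432 by limma), a call that ended in 9 of the 15 fits that left out 1 array (highest adjusted p = 0.1199). The other 2 gave -0.69 and -0.42 (adjusted p = 0.1249 and 0.0742 by limma), and Dpysl4 gave -0.44 ± 0.16 (adjusted p = 0.0761 by limma). In 6 of the 10 probe sets every P8 array lay below every P3 array, against 6.61% of all probe sets tested (7.42% in the other direction). With P8 replicates 5 to 9 in place of 1 to 4, 7 fell and 1 rose. The 2 Dpysl3 probe sets were then called in opposite directions. The dim 1391010_at was the one that rose, with 1.07 ± 0.39, while 1388101_at gave -0.72 ± 0.27 (adjusted p = 0.0241 and 0.0297 by limma). In that setting 10885 probe sets were called, 4329 lower and 6556 higher, against 2435 with replicates 1 to 4. The filter was applied anew to the arrays used there, and the number of probe sets tested is not given. No share therefore stands beside the member counts of that setting. The Dcx difference was then -5.26 ± 0.36 (adjusted p = 9.46e-09 by limma).

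From P8 to P21, 8 of the 10 fell and 0 rose, where 16.7% of all probe sets tested were called, 8.42% lower and 8.31% higher. Dpysl5 had the largest difference, -2.76 ± 0.21 (adjusted p = 2.80e-06 by limma, rank 7 of 15647). The Dclk1 probe sets 1387276_at and 1389706_at fell, with differences of -2.37 ± 0.28 and -2.26 ± 0.31, as did 1369686_at with -1.09 ± 0.16 (adjusted p = 7.66e-05, 2.19e-04 and 3.79e-04 by limma). Dcx fell by 1.90 ± 0.23 and Crmp1 by 1.55 ± 0.14 (adjusted p = 8.32e-05 and 7.89e-06 by limma). Dpysl3 (1388101_at) fell by 1.20 ± 0.29 and Dpysl4 by 0.91 ± 0.17 (adjusted p = 0.0112 and 0.0020 by limma). In 8 of the 10 every P21 array lay below every P8 array, against 6.74% of all probe sets tested (7.31% in the other direction). These calls depend on which P8 arrays are used: with P8 replicates 5 to 9 in place of 1 to 4, 4 fell and 1 rose. The one that rose was the Dclk1 probe set 1369686_at, with 0.59 ± 0.24 (adjusted p = 0.0403 by limma). In that setting 10798 probe sets were called, 6650 lower and 4148 higher, against 2619 with replicates 1 to 4, again with the filter applied anew and no share given. Dcx then gave 0.69 ± 0.38, Dclk1 (1389706_at) -0.29 ± 0.34 and Crmp1 -0.37 ± 0.17 (adjusted p = 0.1191, 0.4756 and 0.0628 by limma), while Dpysl5 gave -1.17 ± 0.25 and Dpysl3 (1388101_at) -1.76 ± 0.29 (adjusted p = 7.09e-04 and 5.18e-05 by limma).

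The contrast of the late step (P8 to P21) minus the early step (P3 to P8), which spans unequal numbers of days, was called for 2 of the 10 probe sets, both downwards, where 4.41% of all probe sets tested were called, 2.35% lower and 2.06% higher. It was -1.72 ± 0.37 for Dpysl5 and -0.92 ± 0.24 for Crmp1 (adjusted p = 0.0188 and 0.0441 by limma), so on the log2 scale both fell more in the late step. The Dpysl5 call ended in 2 of the 15 fits that left out 1 array (without P8 replicate 2 and without P8 replicate 3, highest adjusted p = 0.0716) and the Crmp1 call in 13 (highest adjusted p = 0.1232). With P8 replicates 5 to 9 in place of 1 to 4 the contrast turned to 1.46 ± 0.43 for Dpysl5 and 1.43 ± 0.29 for Crmp1 (adjusted p = 0.0065 and 3.36e-04 by limma), and over all 20 arrays neither was called. For Dcx the contrast was 0.76 ± 0.40 (adjusted p = 0.2775 by limma), and 5.95 ± 0.64 with P8 replicates 5 to 9 (adjusted p = 5.80e-07 by limma). By P8 (replicates 1 to 4) Dcx had covered 58.3% of its P3 to P21 difference on the log2 scale, Dpysl3 51.5%, Dpysl4 32.8%, Crmp1 28.8%, Dpysl5 27.3% and Dclk1 (1389706_at) 23.4%. On the linear scale these shares were 87.7%, 73.1%, 43.3%, 45.1%, 53.3% and 44.3%, and on both scales Dcx and Dpysl3 were ahead of the other 4. The order was not tested, and Dpysl3 was not ahead on P8 replicates 5 to 9. There P8 differed from P3 by -0.72 for Dpysl3, of -2.48 by P21. The same values were -5.26 of -4.57 for Dcx, -0.59 of -1.35 for Dpysl4 and -1.81 of -2.18 for Crmp1. Dpysl5 gave -2.63 of -3.79 and Dclk1 (1389706_at) -2.66 of -2.95. The level of Dcx minus that of Dpysl5 on the same array was 0.35 ± 0.16 at P3 (SD, n = 6), -1.27 ± 0.10 at P8 (SD, n = 4) and -0.42 ± 0.53 at P21 (SD, n = 5). The P8 values, -1.41 to -1.19, lay below all those at P3 and at P21, the lowest of which was -1.07. On P8 replicates 5 to 9 the values ran from -4.38 to -0.92, and the highest of them overlapped those at P21. This pair was set side by side after its values were seen, and the difference was not tested.

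**Figure D3:**
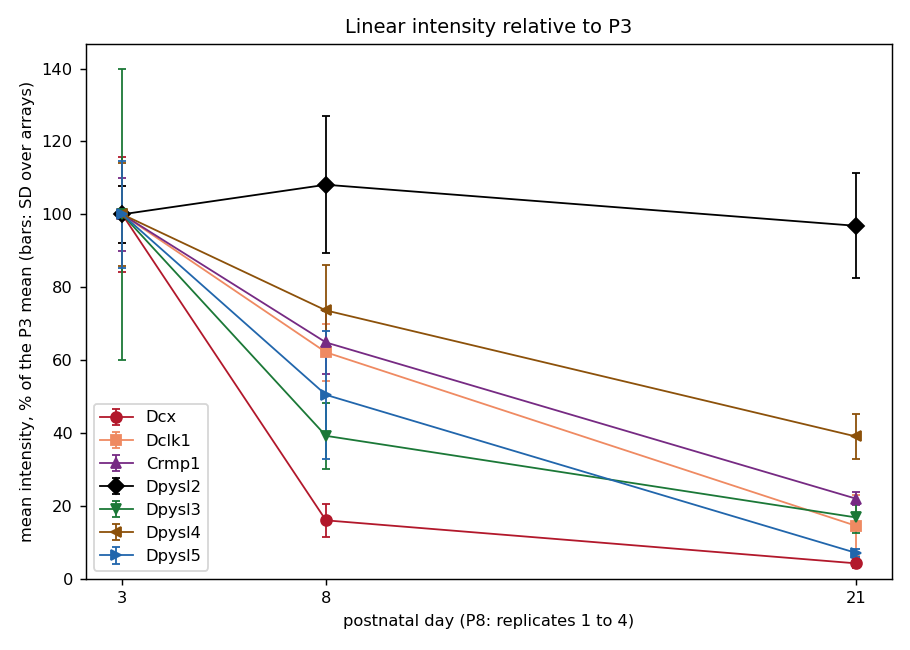
Mean linear intensity of each gene's brightest probe set as a percentage of its P3 mean, against postnatal day, with SD over 6, 4 and 5 arrays. Dcx is at 16% at P8 and 4.24% at P21, while Dpysl5 is at 50.5% and 7.13% and Dpysl2 at 108% and 96.9%.

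P8 replicates 5 to 9 did not place the members at one point of this course. Dcx read 3.55, 5.43, 5.77, 5.77 and 6.12 on them, all below P8 replicates 1 to 4 and 2 of the 5 below every P21 array. Crmp1, Dpysl5 and the Dclk1 probe set 1389706_at averaged 9.16, 7.61 and 7.58, which differed from P8 replicates 1 to 4 by -1.18, -1.59 and -1.97. The Dclk1 probe set 1387276_at averaged 9.30 on them, against 8.94 in P8 replicates 1 to 4, and the 2 sets of arrays overlapped. Dpysl3 (1388101_at) read 6.06 to 6.82 on them, against 5.58 to 6.41 in P8 replicates 1 to 4. The dim probe sets of Dcx and Dclk1 averaged 4.39 and 5.50 on them, against 1.78 and 3.16 in P8 replicates 1 to 4. On all 5 of these arrays Dcx (1374966_at), Crmp1, Dpysl5 and Dclk1 (1389706_at and 1369686_at) lay below every P3 array, as they did on P8 replicates 1 to 4. Dpysl4 did so on 4, Dpysl2 on 3, and Dpysl3 (1388101_at) and Dclk1 (1387276_at) on 2 each. The dim probe sets of Dcx and Dclk1 lay above every P3 array on all 5, and Dpysl3 (1391010_at) on 3. The share over all probe sets was not counted for these arrays, so such counts are not a result about the members. Since these arrays hold P8 animals alone, what sets them apart and the age cannot be told apart there.

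Other genes of the pathway were counted by list. Among all probe sets tested, 7.75% were lower and 7.81% higher from P3 to P8, and 8.42% lower and 8.31% higher from P8 to P21, and the step counts below stand beside these shares. Of 4 tested relatives with a doublecortin domain, 2 were lower at P21 than at P3, 0 higher and 2 did not pass, with a median of -0.73, beside 19.0% lower among all probe sets tested. Dclk3 and Dcdc2 fell, with differences of -1.44 ± 0.37 and -1.99 ± 0.48 (adjusted p = 0.0061 and 0.00408 by limma), both at low levels of 3.72 and 2.00 at P21 and 5.16 and 3.98 at P3. Dclk2, the closest relative of Dclk1, averaged 10.09 at P3, 9.83 at P8 and 10.06 at P21 and differed by -0.03 ± 0.17 between P21 and P3 (adjusted p = 0.917 by limma). From P3 to P8 and from P8 to P21, 0 of the 4 passed.

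Of 17 tested kinases, phosphatases and scaffolds that act on doublecortin or CRMPs, 5 were lower at P21 than at P3, 3 were higher and 9 did not pass, with a median of 0.02, beside 19.0% lower and 20.1% higher among all probe sets tested. Fyn, a tyrosine kinase that phosphorylates CRMPs, fell by 1.66 ± 0.15 and lay at 10.31 at P3, 10.47 at P8 and 8.66 at P21 (adjusted p = 8.79e-07 by limma for P21 against P3). Mapk8, the Jun kinase JNK1, and Dyrk2, a priming kinase for CRMP4, fell, with differences of -0.75 ± 0.13 and -2.17 ± 0.43 (adjusted p = 3.54e-04 and 9.73e-04 by limma). The tyrosine kinase Fes and the GSK3 isoform Gsk3a rose by 2.38 ± 0.61 and 0.54 ± 0.15 (adjusted p = 0.00595 and 0.00913 by limma). Fes averaged 4.04 at P3 and 4.40 at P8, near the filter of log2 4, and 6.42 at P21. Gsk3b fell by 1.25 ± 0.34 (adjusted p = 0.00837 by limma). The Gsk3a call held in 26 of 29 alternatives (highest adjusted p = 0.2894), and Gsk3b was not run under them. Gsk3b and Cdk5 were chosen after their values were seen, and Cdk5 differed by 0.66 ± 0.25 (adjusted p = 0.0510 by limma). From P3 to P8 2 fell and 1 rose, and from P8 to P21 3 fell and 0 rose.

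Of 10 tested genes of semaphorin 3A signalling to CRMPs, 5 were lower at P21 than at P3, 0 higher and 5 did not pass, with a median of -0.53, beside 19.0% lower and 20.1% higher among all probe sets tested. The receptor subunits Plxna1 and Plxna3 fell by 1.17 ± 0.17 and 0.97 ± 0.15, and L1cam, an adhesion molecule that associates with the semaphorin receptor, by 1.19 ± 0.18 (adjusted p = 6.65e-05, 1.01e-04 and 8.51e-05 by limma). From P3 to P8 2 fell and 0 rose, and from P8 to P21 4 fell and 1 rose.

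Of 19 tested tubulin, transport and actin partners, 3 were lower at P21 than at P3, 6 higher and 10 did not pass, with a median of 0.01, beside the same 19.0% lower and 20.1% higher among all probe sets tested. The beta-tubulin gene Tubb2b fell by 1.30 ± 0.16, and Wasf1 and Cyfip1 of the actin-regulating WAVE complex, which CRMP2 binds, fell by 1.16 ± 0.14 and 0.97 ± 0.23 (adjusted p = 1.86e-05, 1.55e-05 and 0.00401 by limma). Nfasc, the neurofascin that binds doublecortin, rose by 1.41 ± 0.18 (adjusted p = 1.80e-05 by limma). The kinesin heavy chain Kif5b and the clathrin adaptor subunit Ap2m1 rose by 1.14 ± 0.15 and 1.13 ± 0.20 (adjusted p = 2.99e-05 and 4.12e-04 by limma). From P3 to P8 3 fell and 3 rose, and from P8 to P21 2 fell and 2 rose.

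**Figure D4:**
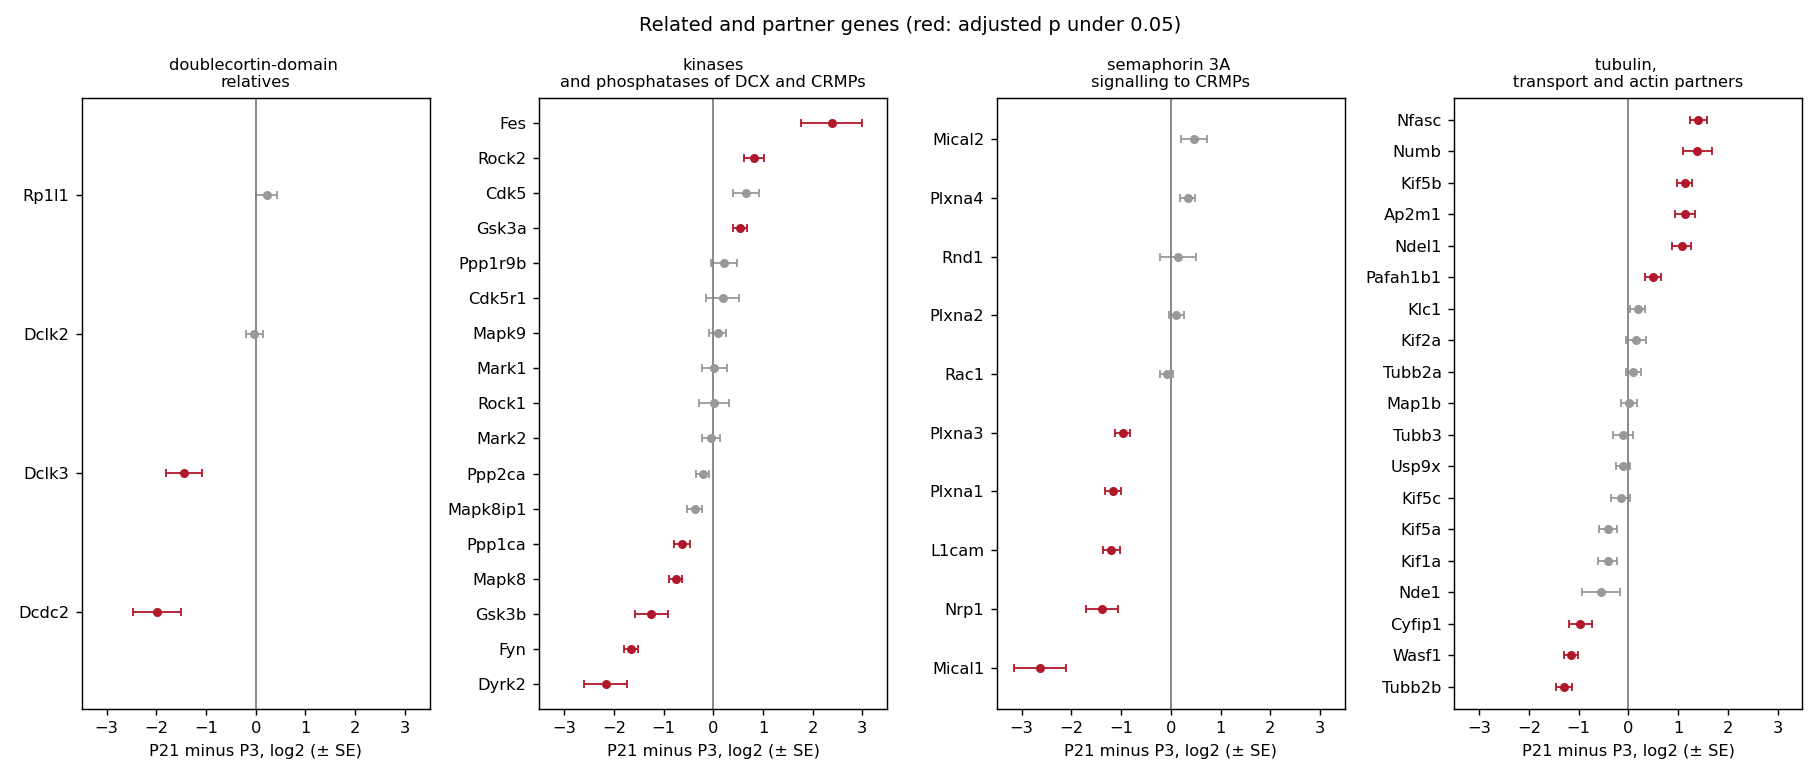
Difference in log2(intensity + 1), P21 minus P3, with SE, for the tested genes of the 4 lists; red marks adjusted p under 0.05 by limma over 15647 probe sets. Falls and rises both occur among kinases and among tubulin, transport and actin partners, while the 5 called genes of semaphorin 3A signalling all lie below 0.

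The genes most alike in pattern were sought by Pearson correlation over the 15 arrays among 8129 genes. The points share 3 ages, so for the genes that fell the coefficients mostly reflect the differences between age means. All coefficients are given as a description. For Dcx these were Sox4 (r = 0.980), Lmo4 (0.976), Tmsb15b2 (0.973), Meis1 (0.970) and Arpc2 (0.969). For Dpysl5 they were Pkia (0.995), Slc49a4 (0.988) and Prkar2b (0.987), and for Crmp1 Mapre1, Prkar2b (both 0.980) and Dynlt1 (0.974). Dclk1 was nearest to Cdhr1 (0.979), Shtn1 (0.969) and Meis1 (0.966). Dpysl4 was nearest to Zfp580 (0.983), Hes6 (0.973) and Gprin1 (0.968), and Dpysl3 to Pak3 and Kat6a (both 0.946) and Dach1 (0.945). For Dpysl2, whose age means hardly differed, they were Sptbn1 (0.977), Cpe (0.970) and COX1 (0.968). These genes differed by -0.017, -0.025 and -0.015 between P21 and P3. Their coefficients thus mostly reflect variation between arrays of the same age.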

How the data were processed

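The authors deposited linear intensities, at least 0, for each probe set on each array. GCRMA is named, with no role, in the submitters' processing notes. Which tool made the linear values is not stated there. Each array's mean without the lowest and highest 2% was 100.0, and nothing further was normalized. The platform annotation gave the gene names, and symbols were updated through RefSeq (GRCr8, names alone). Levels are log2(intensity + 1). limma 3.58.1 in R 4.3.3 (lmFit, eBayes) fitted 3 ages over 15 arrays and the 15647 single-gene probe sets above log2 4 on at least 5 of them. P-values were adjusted by Benjamini-Hochberg over all of these. Of several probe sets of a gene, the one brightest on average stood for it. Pathway genes named are up to 3 called per list and direction with the smallest p (1 of these is not reported here), and the nearest genes are 3 per member and 5 for Dcx. The members, lists and the setting apart of P8 replicates 5 to 9 were chosen with earlier results of these data known. Exact permutation tests of the differences from Dpysl2 used SciPy 1.17.1. The filter, pseudocount, normalization, arrays used and comparator were varied as alternatives. The limma code was tested on simulated data. Precision is bounded by the few arrays per age, which the labels call biological replicates.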

Additional observations from a re-analysis of the deposited data

Results flagged for a closer look

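Each of the 12 probe sets was examined for a single array far from the rest of its set of 4 to 6 arrays, 48 sets in all, and 4 were found. Chance flags about 1 in 20 such sets. On Dcx (1374966_at) P8 replicate 5 read 3.55, 1.89 below the nearest of P8 replicates 5 to 9. On Dclk1 (1389706_at) P3 replicate 3 read 10.01, the lowest of its age by 0.22. On Dpysl2 P8 replicate 3 read 11.68, the highest of P8 replicates 1 to 4 by 0.42. On Dpysl3 (1388101_at) P21 replicate 1 read 4.12, the lowest of its age by 0.74.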

How the results depend on the processing

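The P21 against P3 count of 8 member probe sets called, all lower, was 6 with 1 probe set per gene (which leaves 7) and 8 under every other alternative run, and 8 without each array in turn. The Dpysl2 difference for P21 against P3 ran from -0.22 to 0.04 and passed in 0 of 29 alternatives. With all 20 arrays the P21 against P8 member count was 5, and also 5 with quantile normalization added. It was 5 as well with P8 replicates 5 to 9 in place of 1 to 4 (4 lower, 1 higher). This exchange gave 8 for P8 against P3 (7 lower, 1 higher) and 7 for the late minus early step (2 lower, 5 higher). The last 2 settings were chosen after seeing the data. Calls of the late minus early step over all probe sets were counted in the main fit alone, so no share stands beside its other counts. All probe sets called were 6114, 2435 and 2619 for P21 against P3, P8 against P3 and P21 against P8. They were 2184 and 4486 for the first 2 over 20 arrays, 1531 for the first with quantile normalization added, 10885 and 10798 for the last 2 with P8 replicates 5 to 9, and 1406 for the last with only its ages. Quantile normalization turned the split over 20 arrays from 1744 lower and 2742 higher to 1970 and 1658 for P8 against P3, and from 1693 and 1430 to 848 and 1368 for P21 against P8. Without each array in turn they ran from 5451 to 6675, 1790 to 2503 and 2072 to 2799, the P8 against P3 member count from 4 to 6, the P21 against P8 member count was 8, and the late minus early count ran from 0 to 2. That count was 1 with no filter and with quantile normalization, and 0 with array weights. Sign turns are listed here for results called in either setting. Over 20 arrays they were the late minus early contrasts of Dpysl5 (0.049) and Crmp1 (0.39), and with quantile normalization P21 against P8 of Dcx (0.23) and the contrast of Dpysl5 (0.10). With P8 replicates 5 to 9 they were P21 against P8 of Dcx (0.69) and Dclk1 1369686_at (0.59), Dcx minus Dpysl2 (0.26), and the contrasts of Dclk1 1369686_at and 1389706_at (2.70 and 2.38), Dpysl5 (1.46) and Crmp1 (1.43). Of the 18 differences from Dpysl2 16 to 18 passed without each array in turn. Against the mean of the other members 8 passed. There Crmp1, Dpysl3 and Dpysl4 stood at 0.35, 0.001 and 1.32 for P21 against P3. Dclk1, Crmp1 and Dpysl4 stood at 0.30, 0.37 and 0.59 for P8 against P3, and Dpysl3 and Dpysl4 at 0.39 and 0.73 for P21 against P8. Of these turned values, those of Dpysl4 and Dclk1 passed and those of Crmp1 and Dpysl3 did not. The cause of these changes was not tested. Of the 17 pathway genes that the naming rule gives for P21 against P3, calls of 8 ended over 20 arrays, of 10 with quantile normalization added and of 2 with P8 replicates 5 to 9, and 0 turned in sign. The labels number the replicates of each age from 1. The deviations of same-numbered arrays correlated above 0.1 in 0 of 13 pairs (correlations from -0.06 to 0.08), and the main fit did not pair them. This check cannot exclude a weaker link between them. With the replicate block the counts over all probe sets were 5393, 1306 and 1886, and the member counts were 8, 3 and 8, and 0 for the late minus early step.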

Other observations

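Among P8 replicates 1 to 4, replicates 2 and 3 read higher than replicates 1 and 4 on Dcx (8.17 and 8.36, and 7.62 and 7.55) and on Dpysl5 (9.44 and 9.78, and 8.84 and 8.74). Crmp1 did not share this order, with 10.46 and 10.22 in replicates 2 and 3 and 10.54 and 10.13 in replicates 1 and 4. The pair of arrays was picked after its values were seen and was not tested.

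Nde1, a partner of the dynein regulator Lis1, was lower at P8 than at both other ages. It averaged 4.41 at P3, 1.93 at P8 and 3.86 at P21, fell by 2.48 ± 0.41 from P3 to P8 and rose by 1.93 ± 0.43 from P8 to P21 (adjusted p = 0.00155 and 0.00634 by limma). On P8 replicates 5 to 9 Nde1 averaged 3.21 ± 0.60 (SD, n = 5), above the mean of P8 replicates 1 to 4. All these levels lie near or under log2 4, and the gene was chosen after its values were seen.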
